A study of Danio rerio with 6 samples.

Results

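The FHL genes encode LIM-only proteins, which consist of a row of zinc-binding LIM domains with an incomplete LIM domain at the start and little else. Zebrafish carry *fhl1a*, *fhl1b*, *fhl2a*, *fhl2b*, *fhl3a*, *fhl3b* and *fhl5*, and all 7 were taken here by gene symbol, out of 19260 genes that the array annotation names singly. For each of the 7 the annotation names a single transcript cluster with that symbol alone. A transcript cluster is the probe set that stands for 1 transcript region on the array. The family was picked because *fhl5* had stood out among genes lower in *tdp1-/-* embryos in an earlier look at these same arrays, so the *fhl5* difference is described below without a test. The other 6 came along by family name.

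RNA of whole zebrafish embryos at 5 days post-fertilization (dpf) was hybridised to 6 Affymetrix arrays, 3 of *tdp1-/-* and 3 of *tdp1WT* embryos, numbered 1 to 3 within each genotype and taken from biologically independent experiments. Every embryo, of either genotype, had been kept in 500 nM camptothecin (CPT), a poison that traps topoisomerase 1 on DNA, for 16 hours, and no array of embryos without CPT was analysed here. The *tdp1-/-* line carries CRISPR-Cas9 deletions in *tdp1*, the gene of the phosphodiesterase that frees trapped topoisomerase 1 from DNA. The sources used here do not say which of the line's deletion alleles the array embryos carried or how many embryos went into an array. Values are log2 intensities after RMA, in which array background is subtracted, arrays are brought to a common distribution and the probes of a cluster are summarised, so a difference of 1 is a doubling of signal. As a check of the labels, the *tdp1* cluster measured 5.59, 5.34 and 5.85 in *tdp1WT* and 5.18, 5.17 and 5.24 in *tdp1-/-* embryos for replicates 1, 2 and 3, a log2 difference of -0.40 without overlap, and whether its probes lie in the deleted stretch is not known here.

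LIM domains bind other proteins rather than DNA, and FHL proteins act as adaptors that link the contractile apparatus and the cell's adhesion sites to transcription factors in the nucleus. In mammals FHL1 and FHL3 are known from skeletal muscle and FHL2 from the heart, where it binds titin. Mammalian FHL5, also called ACT, is known as a coactivator of the transcription factor CREM in testis and is found in vascular smooth muscle. These roles are background from mammals and were not measured on the arrays.

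In the *tdp1WT* embryos *fhl5* measured 5.15, 4.88 and 5.00 on the arrays of replicates 1, 2 and 3 (log2 value). In the *tdp1-/-* embryos it measured 4.36, 4.00 and 4.35. Every *tdp1-/-* array lay below every *tdp1WT* array, and the lowest of all was *tdp1-/-* replicate 2. The *tdp1-/-* values also lay below the array medians, which ran from 4.66 to 4.87, and the mean over the 6 arrays was 4.62. The means were 5.01 ± 0.13 in *tdp1WT* and 4.23 ± 0.20 in *tdp1-/-* embryos (SD, n = 3 arrays each), a log2 difference of -0.78, or 1.71-fold lower. Within the same-numbered arrays the log2 difference was -0.79, -0.89 and -0.66. By the size of its log2 difference *fhl5* stood at place 15 from the bottom among the 19260 genes. These are the values that led to the choice of the family, and no test is attached to them. With each array left out in turn the log2 difference of *fhl5* ranged from -0.84 to -0.66.

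The gene *fhl1a*, whose mammalian counterpart is a muscle protein and is mutated in inherited human myopathies, had the clearest difference among the other 6. Its log2 values were 7.01, 7.02 and 6.85 in *tdp1WT* and 6.75, 6.58 and 6.58 in *tdp1-/-* embryos for replicates 1, 2 and 3. The genotypes did not overlap. The means were 6.96 ± 0.099 and 6.64 ± 0.095 (SD, n = 3 arrays each), a log2 difference of -0.32 with a 95% confidence interval that ran from -0.65 to -0.002, or 1.25-fold lower. In limma its unadjusted p was 0.0491 and its p adjusted over all clusters was 0.9999. An exact permutation test, two-sided, gave p = 0.1, and with 3 arrays on each side no lower value can be reached. The call at an unadjusted p under 0.05 was lost when *tdp1WT* replicate 1 or 2 or *tdp1-/-* replicate 2 or 3 was left out, with unadjusted p from 0.105 to 0.137 in limma and log2 differences from -0.30 to -0.29. It was also lost after each array was centred on its median (unadjusted p = 0.078 in limma). Its paralog *fhl1b*, which in zebrafish has a part in the choice between liver and pancreas fate, measured 5.39, 5.49 and 5.69 in *tdp1WT* and 5.46, 5.43 and 5.54 in *tdp1-/-* embryos. These values overlapped fully, with a log2 difference of -0.04 (95% confidence interval from -0.38 to 0.29).

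The gene *fhl3a* had the second lowest log2 difference of the family after *fhl5*, without passing the test. It measured 7.15, 6.92 and 6.71 in *tdp1WT* and 6.68, 6.33 and 6.71 in *tdp1-/-* embryos. Replicates 1 and 2 differed by -0.48 and -0.59 on the log2 scale within their pairs, whereas the arrays of replicate 3 differed by 0.0002, so the genotypes overlapped. The log2 difference was -0.36 (95% confidence interval from -0.78 to 0.06) and the adjusted limma p was 0.9999. The exact permutation test gave p = 0.2. With array weights its unadjusted p was 0.0473 in limma, and without *tdp1WT* replicate 3 it was 0.0485, with log2 differences of -0.43 and -0.47. Its paralog *fhl3b* was measured more tightly. It gave 6.56, 6.57 and 6.64 in *tdp1WT* and 6.32, 6.52 and 6.36 in *tdp1-/-* embryos. All 3 *tdp1-/-* values of *fhl3b* were the lower ones, yet the log2 difference of -0.19 (95% confidence interval from -0.51 to 0.12) did not pass in limma, with an unadjusted p of 0.193.

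For the pair *fhl2a* and *fhl2b*, whose mammalian counterpart is known as a heart protein and a coregulator of transcription, the genotypes overlapped. The gene *fhl2b* measured 5.19, 4.86 and 4.79 in *tdp1WT* and 5.00, 4.54 and 4.67 in *tdp1-/-* embryos. In each same-numbered pair its *tdp1-/-* array was the lower one, by -0.19, -0.33 and -0.11 on the log2 scale, and the replicate 1 arrays of both genotypes were the highest. The log2 difference of *fhl2b* was -0.21 (95% confidence interval from -0.64 to 0.22). The gene *fhl2a* measured 5.41, 5.15 and 5.23 in *tdp1WT* and 4.77, 5.09 and 5.54 in *tdp1-/-* embryos. Its *tdp1-/-* arrays spread over 0.77 on the log2 scale against 0.26 for *tdp1WT*, and its pairs ran both ways, with log2 differences of -0.64, -0.06 and 0.31. The mean log2 difference of *fhl2a* was -0.13 (95% confidence interval from -0.63 to 0.37), which does not exclude a gene 1.55-fold lower or 1.29-fold higher. Neither gene passed, with unadjusted p of 0.293 for *fhl2b* and 0.563 for *fhl2a* in limma.

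**Figure D1:**
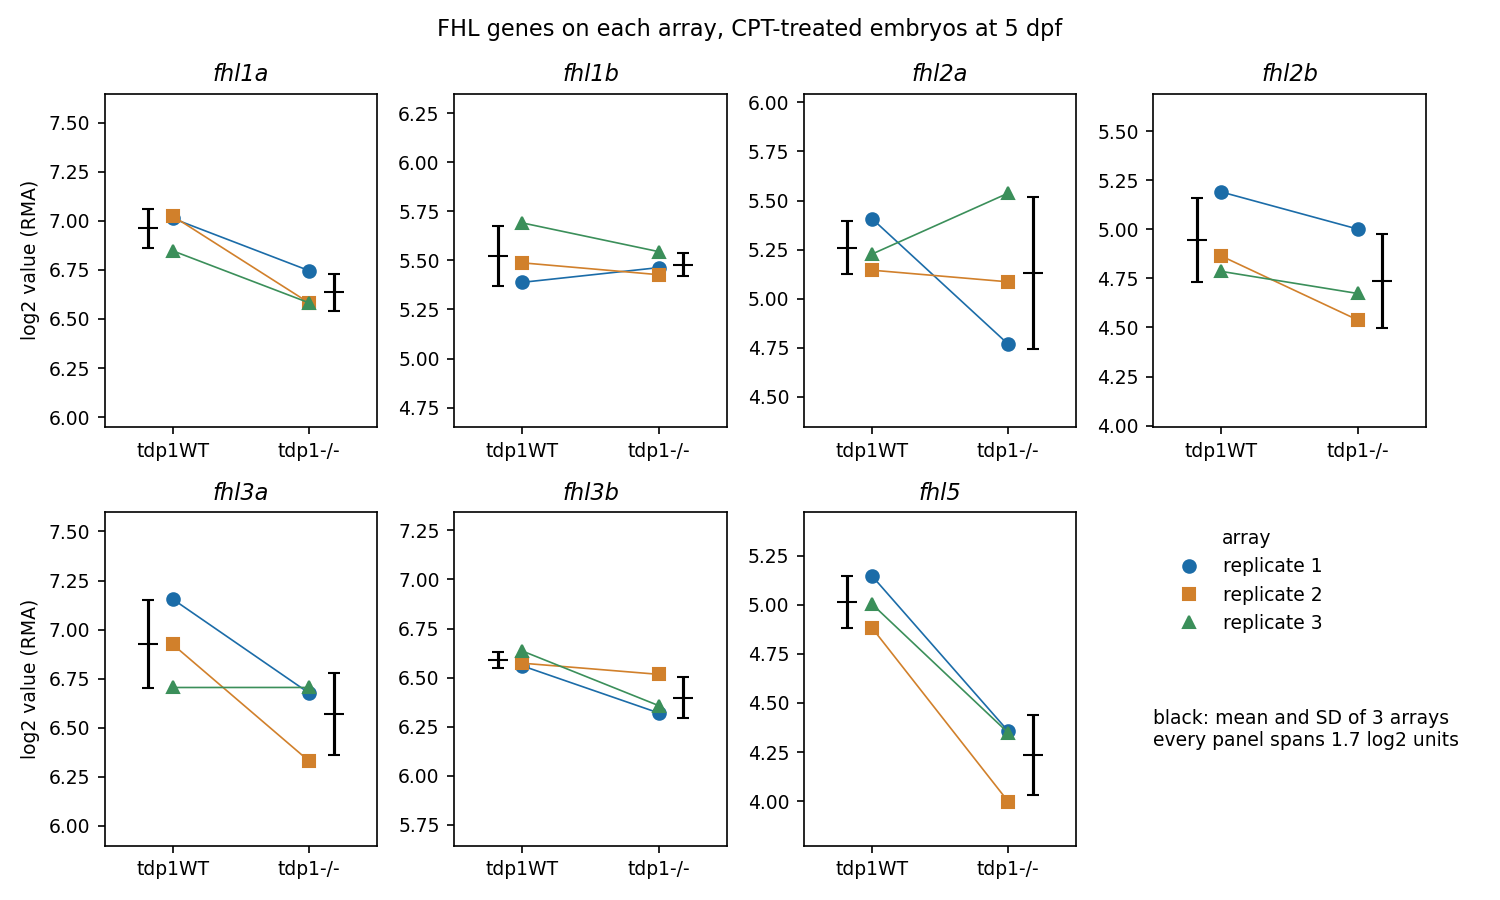
Log2 RMA value (y axis) of each FHL gene on the 3 *tdp1WT* and 3 *tdp1-/-* arrays, with lines joining arrays of the same replicate number and black bars giving the mean and SD of 3 arrays. All 3 lines of *fhl5* run down from values between 4.88 and 5.15 to values between 4.00 and 4.36, those of *fhl1a* run down by less, and those of *fhl2a* cross.

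Across the family the log2 difference was negative in 7 of 7 genes, from -0.78 to -0.04 with a median of -0.21, and in all 6 genes other than *fhl5*, with a median of -0.20. Over all 19260 genes 51.4% were negative and the median was -0.005. A gene was called where limma gave an unadjusted p under 0.05 and its signal moved by more than 1.2-fold, the fold threshold of the study. The rule is read for the 6 genes other than *fhl5*, and of these 1 was called lower, *fhl1a*, and none higher, where 1.04% of all genes were called lower and 0.852% higher. The *tdp1-/-* arrays all lay below the *tdp1WT* arrays in 2 of the 6, *fhl1a* and *fhl3b*, against 4.08% of all genes. All 3 same-numbered pairs were lower in 3 of the 6, *fhl1a*, *fhl2b* and *fhl3b*, against 16.8% of all genes. No gene, in the family or elsewhere, was under an adjusted p of 0.05 in limma, where 364 of the 19260 genes were called at the unadjusted thresholds. With the replicate number as a block, *fhl1a* was again the 1 gene of the 6 called lower, while 2.49% of all genes were called lower in that fit. Taken over all 75212 clusters, most of them without a gene name, 1.29% were called lower, 2.28% higher and 3.57% in either direction, and with the block 2.48%, 3.94% and 6.42%. Of those clusters 43.4% had a negative log2 difference, 3.07% had every *tdp1-/-* array below every *tdp1WT* array and 11.8% were lower in all 3 pairs. The 7 genes share arrays and normalization, so their signs are not independent of each other. RNA of whole embryos cannot tell fewer cells of a type from less RNA per cell.

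The genotype differences of the *a* and *b* paralogs were also set against each other within arrays, a comparison made after the values were seen. A gap between clusters of different probes has no meaning as a level, and only its change between genotypes is read. The gap of *fhl1a* over *fhl1b* was 1.44 ± 0.25 in *tdp1WT* and 1.16 ± 0.12 in *tdp1-/-* embryos (log2 units, SD, n = 3 arrays each), a change of -0.28 (exact permutation test, two-sided, p = 0.2, or 0.6 after adjustment over 3 paralog pairs). The gap changed by 0.08 for *fhl2a* over *fhl2b* and by -0.17 for *fhl3a* over *fhl3b* (exact permutation test, p = 0.9 and 0.6, adjusted p = 0.9 for both). With 3 arrays on each side the exact permutation test cannot go below p = 0.1, so it could not have passed for any pair, and the changes stand as values. Within the same-numbered arrays the *fhl1a* gap changed by -0.34, -0.38 and -0.12 for replicates 1, 2 and 3, downward each time, whereas those of the other pairs ran both ways. Deviations from the genotype means were compared over the 6 arrays of both genotypes together. Those of a genotype cancel out, so fewer than 6 of the values are free. Pearson's r was highest for *fhl2b* and *fhl3a* (0.81), *fhl3a* and *fhl5* (0.79) and *fhl1a* and *fhl2b* (0.78). Next came *fhl2b* and *fhl5* (0.75) and *fhl1a* and *fhl3a* (0.64). The deviations of *fhl3b* had r of -0.86 against *fhl3a*, -0.82 against *fhl5*, -0.77 against *fhl2b* and -0.67 against *fhl1a*. Against *fhl1b* and *fhl2a* they had 0.13 and 0.03. Negative r was not limited to *fhl3b*, with -0.68 for *fhl1a* and *fhl1b*, -0.52 for *fhl1b* and *fhl2b* and -0.49 for *fhl1a* and *fhl2a*. These are descriptions over 6 arrays of shared normalization and are not particular to the family, since 1645 of 19259 genes had r over 0.9 with *fhl5* by the same measure.

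The 7 genes lie on 7 different chromosomes, 14 for *fhl1a*, 10 for *fhl1b*, 9 for *fhl2a*, 6 for *fhl2b*, 16 for *fhl3a*, 19 for *fhl3b* and 17 for *fhl5*, in the RefSeq table of assembly GRCz12tu, used here for chromosomes and gene order only. Chromosome 17 is also that of *tdp1*. Of its 946 protein-coding genes, *tdp1* is place 17 counted from *fhl5*, with 16 genes between them. Loss of *tdp1* and other inherited differences this close to it on the chromosome cannot be told apart by these arrays. Of the family only *fhl5* lies on the chromosome of *tdp1*. For the other 6, inherited differences elsewhere in the genome cannot be told apart from loss of *tdp1* by these arrays either.

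Of the 5 neighbours on each side of *fhl5* 8 were measured, none was called and 2 had a negative log2 difference. Their values ran from -0.29 to 0.19 with a median of 0.10. At the low end, *si:ch211-266g18.10* (-0.29) had every *tdp1-/-* array below every *tdp1WT* array, as 4.08% of all genes did. Since *fhl5* was chosen for its low value, its distance from these neighbours is a description. The next gene toward *tdp1*, *fut9a*, a fucosyltransferase gene, had a log2 difference of 0.11, and the next gene on the far side has no cluster with its symbol. Among the 16 genes between *fhl5* and *tdp1*, a stretch chosen after the position of *fhl5* was seen, 14 were measured and 4 were negative. One of the 14, the homeobox gene *hmbox1a*, was called lower with a log2 difference of -0.36, and none was called higher. This call was lost with any 1 array left out, at log2 differences from -0.42 to -0.29. Values of the 14 ran from -0.36 to 0.24 with a median of 0.10. Every *tdp1-/-* array lay below every *tdp1WT* array for *syne3* (-0.24), *si:ch73-204p21.2* (-0.27) and *hmbox1a*, against 4.08% of all genes. For *kif13ba* (0.08) and *kcnk13a* (0.19) every *tdp1-/-* array lay above. Neither was called, and the share of all genes lying above in this way was not counted. Just past *tdp1*, *efcab11* measured 4.13, 4.14 and 4.38 in *tdp1WT* and 4.93, 5.22 and 4.96 in *tdp1-/-* embryos, a log2 difference of 0.82 in the upward direction. It was called higher with and without the replicate block, where 0.852% and, with the block, 1.55% of all genes were. Its adjusted p in limma was 0.97, and *efcab11* was picked after its value was seen. For the other 6 family members 1 of the measured neighbours of *fhl2a*, the adaptor gene *nck2a*, and 1 of those of *fhl2b*, *otos2*, were called lower, with log2 differences of -0.44 and -0.38. The call of *nck2a* was lost without *tdp1-/-* replicate 2 or *tdp1WT* replicate 2 or 3, at log2 differences from -0.43 to -0.36, and that of *otos2* with any array left out except *tdp1-/-* replicate 2, at values from -0.39 to -0.29. In total 2 of 54 measured neighbours were called, beside 1.89% of all genes in either direction. With the block both stayed called and *tmem182a*, another neighbour of *fhl2a*, was also called lower, at -0.31. In that fit 4.04% of all genes were called in either direction.

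**Figure D2:**
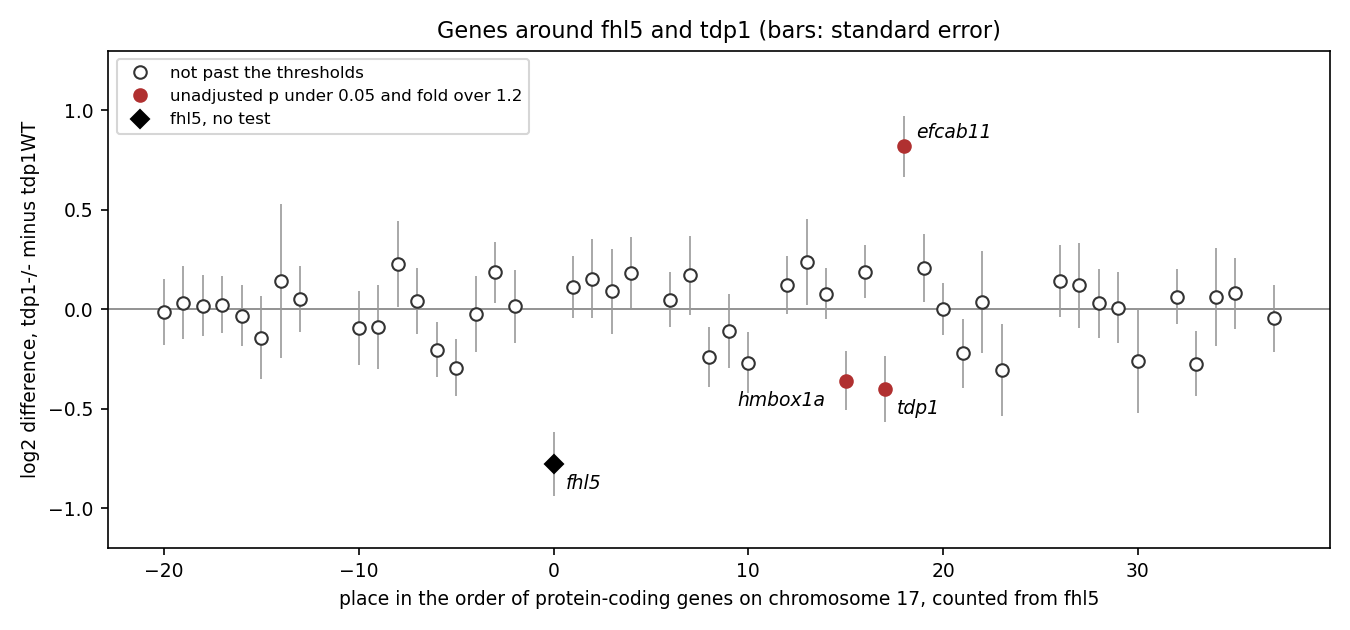
Log2 difference of *tdp1-/-* minus *tdp1WT* (y axis, bars give the standard error) for measured genes in their order along chromosome 17, counted in protein-coding genes from *fhl5* (x axis). Filled circles are called genes. The diamond is *fhl5*, chosen for its low value and given no test, at -0.78 between neighbours that lie from -0.29 to 0.19. The called gene *efcab11*, next to *tdp1*, stands at 0.82.

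The genes most like *fhl5* over the 6 arrays, by Pearson's r among 19259 genes, were *ankrd10a* (r = 0.997), *faap24* (0.996), *cygb1* (0.993), *tnni1b* (0.987) and *cmya5* (0.985). Of these, *faap24* belongs to the Fanconi anemia pathway of DNA crosslink repair, *cygb1* encodes a cytoglobin, *tnni1b* a troponin and *cmya5* a protein of muscle. All 5 had lower values on every *tdp1-/-* array, with log2 differences of -0.16 for *ankrd10a*, -0.42 for *faap24*, -0.32 for *cygb1*, -0.38 for *tnni1b* and -0.33 for *cmya5*. With 6 arrays in 2 genotypes a high r follows from a genotype gap alone, and 157 genes had r over 0.9. A second cluster named *cygb1* had a log2 difference of 0.003. The *tnni1b* cluster was dim, with a mean of 2.94 over the 6 arrays. By the deviations from the genotype means, which leave that gap out, the 5 most alike were *atf6*, a sensor of stress in the endoplasmic reticulum, *abca1a*, a cholesterol transporter, *rspry1*, *ap2b1*, a clathrin adaptor, and *scai*, with r from 0.998 to 0.999. None of these 5 was called, with log2 differences from -0.15 to 0.17. By the deviations *ankrd10a*, *faap24* and *cygb1* of the first set still had r of 0.98, 0.97 and 0.94. Of the family itself, *fhl1a* had r of 0.89 with *fhl5* over the 6 arrays and 0.30 by the deviations, and *fhl3a* had 0.86 and 0.79.

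Genes that work with FHL proteins were looked up in lists chosen by role. Among 33 measured relatives with LIM domains, none was called, 23 had a negative log2 difference and the median was -0.07. Smallest in p were *ldb3b*, a Z-disc protein, with a log2 difference of -0.36, and *lims2*, a partner of integrin-linked kinase, with -0.23. With the replicate block *ldb3b* and *limd1a* (-0.32) were called lower. Among 17 regulators of the CREB and CREM transcription factors, with which mammalian FHL5 works, none was called with or without the block. Their median log2 difference was 0.06, 12 of 17 were positive, and the smallest p belonged to *creb1b* with -0.23 and to the acetyltransferase gene *crebbpb* with 0.20.

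Of 23 measured partners around titin, myosin-binding protein C and calcineurin, 1 was called lower and none higher. This was *myoz3a*, a calsarcin that binds calcineurin at the Z-disc. Its log2 values were 7.30, 7.36 and 7.22 in *tdp1WT* and 6.87, 6.67 and 6.97 in *tdp1-/-* embryos, so the genotypes did not overlap, and its log2 difference of -0.45 is 1.37-fold lower. The calcineurin regulator *rcan1b* had a log2 difference of -0.31 without a call, and the list's median was -0.02. With the block *mybpc1* (-0.29) and *myoz3a* were called lower and *rcan1a* (0.30) higher. Without *tdp1WT* replicate 2 the call of *myoz3a* was lost, with a log2 difference of -0.42. Of 25 measured integrin adhesion genes, through which cells hold to the matrix, 21 had a negative log2 difference with a median of -0.11 and none was called. Smallest in p was *itga3a* with -0.27, and the block called the laminin receptor gene *itga7* lower, at -0.43. Of 17 genes of the serum response factor SRF and its partner MRTF, which govern the genes of the actin cytoskeleton, none was called. Their median was -0.01, with -0.18 for the vinculin gene *vcla* and 0.14 for *ccn2a*.

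Markers of tissues in which FHL genes are known to be active were read beside the family. Of 11 heart muscle markers 2 were called lower, with or without the block, 9 were negative and the median was -0.17. Of all genes 1.04% were called lower, or 2.49% with the block, and 51.4% were negative. The atrial myosin gene *myh6* measured 5.55, 5.59 and 5.31 in *tdp1WT* and 5.24, 4.43 and 4.69 in *tdp1-/-* embryos, 1.62-fold lower. The troponin gene *tnni1b*, also among the genes most like *fhl5*, had a log2 difference of -0.38. Its cluster was dim, at 3.18, 3.09 and 3.13 in *tdp1WT* and 2.85, 2.66 and 2.75 in *tdp1-/-* embryos. Those values lie below the array medians, which ran from 4.66 to 4.87. The call of *myh6* was lost without *tdp1-/-* replicate 2, at -0.52, and without *tdp1WT* replicate 2, at -0.65. That of *tnni1b* was lost with any array left out except *tdp1-/-* replicate 1, at values from -0.40 to -0.33. The mean log2 value over the heart list ran from 5.33 to 5.45 on *tdp1WT* arrays and from 5.16 to 5.23 on *tdp1-/-* arrays. The heart list, like 4.08% of single genes, thus lay lower on every *tdp1-/-* array than on every *tdp1WT* array. The same held for the LIM-domain relatives, with a list mean from 6.76 to 6.80 on *tdp1WT* and from 6.61 to 6.73 on *tdp1-/-* arrays, and for none of the other 9 lists. The part of either list in the FHL differences was not tested.

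Of 16 fast skeletal muscle markers none was called, with or without the block. The median was -0.03, and the list mean ran from 10.52 to 10.59 on *tdp1WT* and from 10.50 to 10.58 on *tdp1-/-* arrays, so the genotypes overlapped. Smallest in p were the troponin gene *tnnt3a* with a log2 difference of -0.24 and the creatine kinase gene *ckmb* with -0.13. None of 9 slow muscle markers was called, with a median of -0.07, a list mean from 6.50 to 6.62 on *tdp1WT* and from 6.47 to 6.64 on *tdp1-/-* arrays, 0.16 for *prox1a* and -0.13 for *tnnc1b*. None of 10 muscle progenitor markers was called, with a median of -0.11 (list mean from 6.28 to 6.48 and from 6.11 to 6.44), -0.39 for *mef2ca* and 0.19 for *myf5*. Of 10 smooth muscle markers, a tissue of mammalian FHL5, none was called without the block and the block called *myh11a*, the smooth muscle myosin, lower at -0.48. Their median was -0.13, with a list mean from 5.79 to 6.06 on *tdp1WT* and from 5.66 to 5.90 on *tdp1-/-* arrays, and *lmod1b* had 0.22. Of 8 germ cell markers none was called and 6 were positive, with a median of 0.10, a list mean from 3.87 to 4.29 and from 3.93 to 4.39, and 0.24 for *sycp3*. The block called the germ cell gene *ca15b* higher, at 0.38. Over the pathway and marker lists together 3 of 179 genes were called, all lower, against 1.89% of all genes in either direction, and 10 with the block, 8 lower and 2 higher, against 4.04%.

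**Figure D3:**
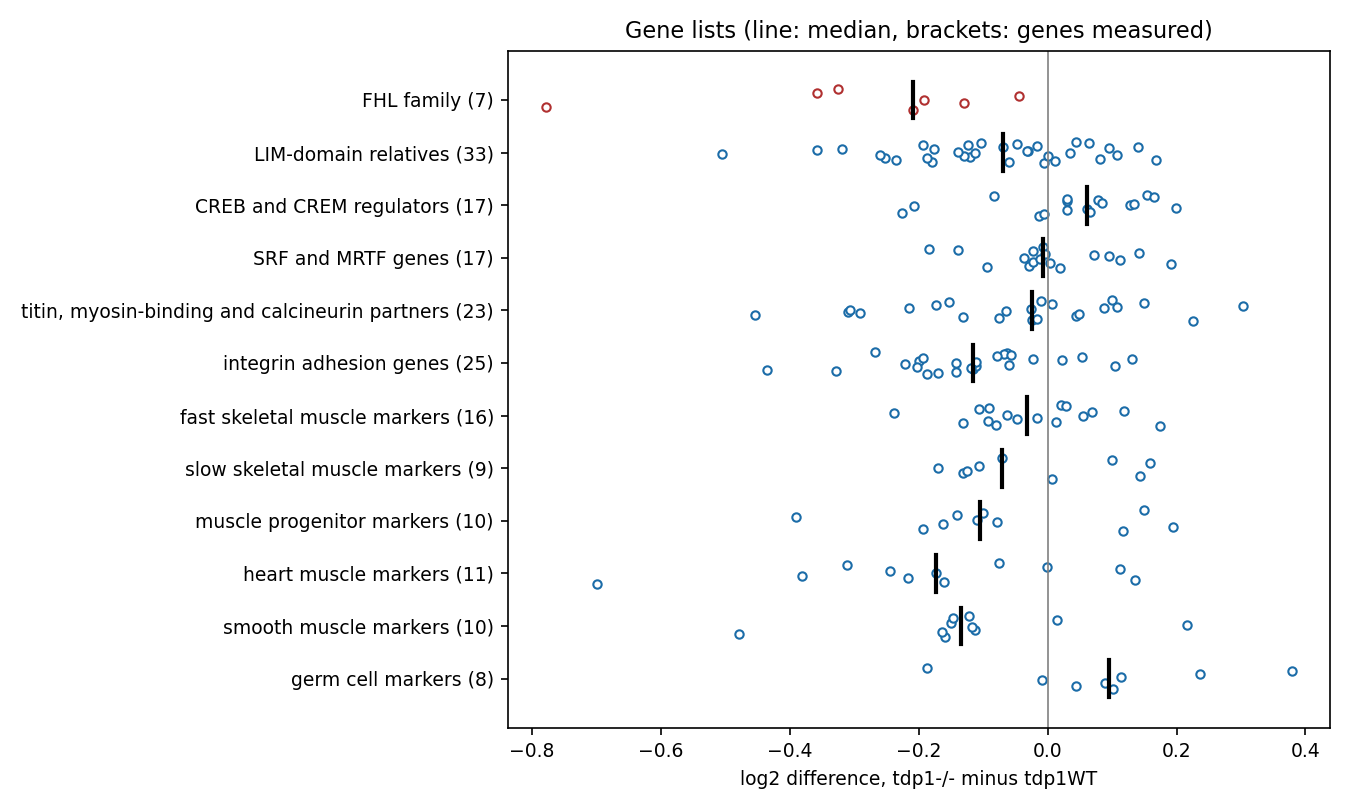
Log2 difference of *tdp1-/-* minus *tdp1WT* (x axis) of each measured gene in the FHL family and in the lists of partners and tissue markers, with a line at each median and the number of genes in brackets. The FHL genes, with *fhl5* chosen for its low value, lie below 0, from -0.78 to -0.04. Their median is -0.21, or -0.20 without *fhl5*, and the medians of the other lists lie from -0.17 for heart to 0.10 for germ cells.

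The differences of the family members were recomputed under each other way of processing. That of *fhl5*, the gene chosen for its difference, ran from -0.84 to -0.66 over the 13 settings in which its cluster was kept. The filter on dim clusters left the *fhl5* cluster out. The genotypes did not overlap for *fhl5*, so leaving out an array could not turn its sign. Some settings change only the test and repeat the same value. The range of *fhl5* is a description and no support for its difference. The gene *fhl1a* was called in 9 of 14 settings, *fhl3a* in 2 of 14, and *fhl1b*, *fhl2a*, *fhl2b* and *fhl3b* in none. The sign turned for *fhl1b* with array weights and without *tdp1WT* replicate 3, and for *fhl2a* without *tdp1-/-* replicate 1.

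**Figure D4:**
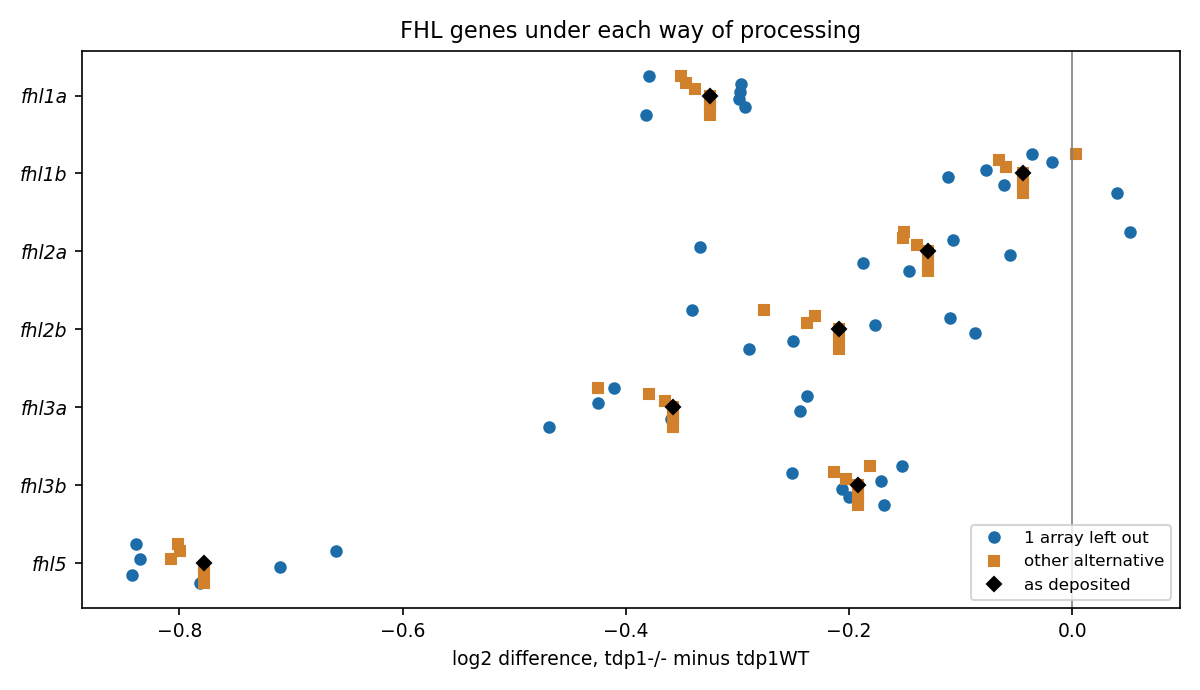
Log2 difference of *tdp1-/-* minus *tdp1WT* (x axis) of each FHL gene from the values as deposited (diamonds), with 1 array left out (circles) and under the other alternatives (squares). The values of *fhl5* run from -0.84 to -0.66, apart from those of the other genes, and those of *fhl1b* and *fhl2a* reach both sides of 0.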

How the data were processed

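Total RNA was labelled by the Affymetrix WT plus protocol and scanned. The authors' deposited values are log2 intensities, 1 per transcript cluster and array, after RMA in the Transcriptome Analysis Console, and the sources used here name no genome build or annotation release for them. RMA shrinks the differences of dim clusters, and array medians still ran from 4.66 to 4.87 in the deposited table of 75212 clusters. Precision is limited by having 3 arrays per genotype. The platform annotation names 20806 clusters singly, and through Entrez IDs 20323 of them found a current symbol in the RefSeq table of GRCz12tu. For a gene with several clusters the one with the highest mean was used.

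The log2 difference of *tdp1-/-* minus *tdp1WT* was fitted over all clusters with limma 3.58.1 (lmFit and eBayes) in R 4.3.3, with Benjamini-Hochberg adjustment over all clusters. Calls needed a fold over 1.2 beside an unadjusted p below 0.05. The fit was tested on simulated data. Exact permutation tests used scipy 1.17.1.

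The deviations of same-numbered arrays from the genotype means had Pearson's r of 0.203 (replicate 1), 0.216 (replicate 2) and 0.29 (replicate 3). Each array matched its own number best, so the numbers were taken to pair the arrays, from the data and not from the labels. These r are low, and with 3 arrays per genotype such a match can also arise by chance.

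The members and gene lists were chosen with earlier results of these data known. Named genes are all 7 members and *tdp1*, the 2 genes with the smallest p in each of the 11 lists, the 5 genes most like *fhl5* by each measure, the genes next to *fhl5* and called neighbours. Listed genes and neighbours that only the block called, *hmbox1a* and *efcab11* were added after their values were seen. So were the neighbours of *fhl5* and the genes between *fhl5* and *tdp1* whose genotypes did not overlap. Alternatives were a further quantile normalization, median centring, array weights, an intensity trend, a filter on dim clusters, clusters with identical values counted once, the replicate block, other clusters of a gene and leaving out each array.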

Additional observations from a re-analysis of the deposited data

How the results depend on the processing

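The gene *fhl5* was chosen for its difference and is not counted here. Of the 6 other FHL genes *fhl1a* alone passed the thresholds in the values as deposited and with dim clusters left out. None of the 6 passed with median centring. With an array left out, *fhl1a* passed without *tdp1-/-* replicate 1 and without *tdp1WT* replicate 3, where *fhl3a* joined, and none of the 6 passed without any of the others. Over all 75212 clusters 2688 were called as deposited (3.57%) and 4830 with the replicate block (6.42%). With dim clusters left out 1340 were called, among fewer clusters tested. With an array left out from 1881 to 5004 of the 75212 clusters were called, the highest without *tdp1-/-* replicate 1. In the gene lists 3 genes were called, 10 with the block and from 2 to 6 with an array left out, the highest again without *tdp1-/-* replicate 1. The cause of these changes was otherwise not tested. Of calls from the deposited values, 970 were lower and 1718 higher over all clusters, against 1548 and 1566 after a further quantile normalization, where *fhl1a* remained called, and against 1277 and 1669 with median centring. The block changed no call among the 6 FHL genes other than *fhl5*.

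Signs turned for *fhl1b* with array weights (log2 difference 0.00376) and for the second cluster of *cygb1* (0.00322). With an array left out, log2 differences crossed 0 for *fhl1b* (from -0.11 to 0.0404), *fhl2a* (from -0.33 to 0.0516), *fut9a* (from -0.00555 to 0.19), *ap2b1* (from -0.15 to 0.22) and *scai* (from -0.14 to 0.20). The call of *tdp1* was lost with array weights, with an intensity trend and without any array except *tdp1WT* replicate 2. No FHL gene has a second cluster named with its symbol alone, so no other cluster was tried for the family. The 855 clusters with several symbols and the 53551 with none were not searched for FHL genes. Depth is not a measure of these arrays, and the spread between 3 arrays limits what can be seen.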
